A study of Mus musculus with 44 samples.

Results

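The cells described here are 20 single macrophages that had been cultured with megakaryocytes, out of 44 single cells in the study. They were chosen by the treatment field of the labels, and all 20 came from plate 7. The study cultured neonatal calvarial cells of C57BL/6J mice for 16 h with 50000 megakaryocytes, the blood platelet precursors, and then sorted cells that carried CD45 and F4/80 and lacked CD41. The labels call the sorted cells primary osteomacs, and no label names a transgene, a further agent or the age of the mice beyond neonatal. Each cell was captured on a Fluidigm C1 chip, SMART-Seq chemistry was used for cDNA and Nextera XT for the library, and sequencing was paired-end. No label names the culture, the animal or the number of animals behind a cell, so the 20 cells count as 1 sample of 1 condition. All spreads below are therefore between cells of that sample, and no test or p-value was made from them.

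Osteomacs are macrophages that line bone surfaces, where they lie next to osteoblasts, and in the marrow they are neighbours of megakaryocytes and blood stem cells. Macrophages take up dead cells and debris, digest them in lysosomes, present antigen on MHC molecules and secrete chemokines, the small proteins that attract other leukocytes. CD45 is encoded by Ptprc and F4/80 by Adgre1, and the survival receptor of the lineage is the CSF1 receptor, encoded by Csf1r. A single cell holds few copies of most mRNAs, and genes are transcribed in bursts, so cells of 1 type are known to differ in which mRNAs they hold at a given moment. A coefficient of variation (CV, the SD over cells divided by the mean over cells) is used below as the measure of spread in reads. How much of this spread comes from the mRNA held and how much from library preparation was not tested.

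The deposited table lists 3613 genes, of which 3528 were detected by a read in 1 or more of these cells. Its values are a signal of RPKM form whose divisor per gene was unrelated to annotated gene length, so levels were compared between cells within a gene and never between genes. Every deposited value above 0 turned into a whole read, and CPM below is the usual scaling of those reads to the library reads. The libraries held a median of 834834 reads. Cell 11 had 69181 and cell 16 had 71585 library reads, and the other 18 cells had between 508854 and 1212604. A count of 0 reads in a cell allows a level of up to 3 reads, which is 43.4 CPM in cell 11, 41.9 CPM in cell 16 and 2.47 to 5.90 CPM in the other cells. Because the reads carry no molecular identifiers, these limits cover counting error only.

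All 20 cells had reads of the 4 genes that mark the lineage, Tyrobp, Csf1r, Lyz2 and Ctss, and 19 of the 20 had at least 10 CPM of each. Tyrobp, the adaptor protein of activating myeloid receptors, ranged from 69.8 CPM in cell 16 to 4807 CPM in cell 9, with a median of 1381 CPM. Csf1r ranged from 91.7 CPM in cell 12 to 1692 CPM in cell 7, with a median of 679 CPM. Ctss, a lysosomal protease, ranged from 17.2 CPM in cell 19 to 7778 CPM in cell 13, with a median of 1861 CPM. Lyz2, the lysozyme of myeloid cells, was the marker that failed the 10 CPM level, with 1 read (0.906 CPM) in cell 19 and 112 CPM in cell 16 against a median of 6470 CPM and a highest level of 33484 CPM in cell 15. Of the 20 listed genes in a wider macrophage list, the cells held a median of 16.5 at 10 CPM or more, and the fewest were the 10 in cell 19 and the 12 in cell 12. The label macrophage thus rests on Tyrobp, Csf1r and Ctss at 10 CPM or more in all 20 cells and Lyz2 at that level in 19. No cell held all 20 genes of the wider list.

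The genes of the sort itself were uneven. Ptprc was read in all 20 cells, with a median of 250 CPM, from 2.29 CPM in cell 7 and 2.83 CPM in cell 6 to 1479 CPM in cell 12. Adgre1 was read in 17 cells, with a median of 240 CPM and a highest level of 1699 CPM in cell 4, and it had no read in cells 7, 16 and 19. It was also under 10 CPM in cells 9, 17 and 20. The sort gates on protein, and how these mRNA levels relate to the protein was not measured. Itga2b, which encodes CD41, is not among the genes listed, so that gate was not analysed here.

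Few genes of the lists for other cell types are listed. Of the osteoclast list 4 of 15 genes are listed, and they are described further below. Their summed level ranged from 0 CPM in cell 1 to 1834 CPM in cell 19, with a median of 313 CPM. No gene of the fixed dendritic, erythroid, endothelial and mast cell lists is listed in the table, so these types could not be looked for. Of the megakaryocyte and platelet list of 16 genes, 2 are listed. Pf4, platelet factor 4, a chemokine of platelets that some tissue macrophages also make, was read in 16 cells with a median of 183 CPM, a highest level of 8749 CPM in cell 7 and 7545 CPM in cell 13, and no read in cells 1, 6, 9 and 16. Nbeal2, which platelet granules need, was read in 3 cells, and cell 10 held 97.0% of its summed CPM. With the defining platelet genes outside the table, the part of megakaryocyte RNA in the Pf4 levels was not tested. Of the osteoblast and fibroblast list 9 genes are present, and they summed to 3.88 to 196 CPM per cell, and both cells above 100 CPM were the shallow cells 11 and 16, where 1 read already counts as 14.5 and 14.0 CPM. Collagen Col1a2 was at 55.9 CPM in cell 16 and 28.9 CPM in cell 11 and under 10 CPM in the other 18 cells. Il7r, the only listed lymphoid gene, reached 1553 CPM in cell 14 and 793 CPM in cell 3 and had no read in 11 cells. S100a8, a calcium-binding protein of neutrophils and monocytes, was read in 10 cells and reached 1167 CPM in cell 15, 722 CPM in cell 12 and 506 CPM in cell 11.

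The libraries of cells 11 and 16 stand apart from the rest, and cells 11 and 12 share much of their profile. Cell 16 had the fewest genes read (1247 of the 3613), in a shallow library. With the cells thinned to 69181 reads, cell 6 had fewer, 1065 beside 1238 in cell 16. Malat1, a nuclear non-coding RNA, took 24.5% of the library reads of cell 16, against at most 1.90% in any other cell. Actb, beta-actin, took 0.845% of its reads, against 5.21% to 12.9% in the other 19 cells. Its median Spearman correlation with the other 19 cells, over 2204 genes, was 0.211, whereas the other 19 cells had medians between 0.318 and 0.415. Cell 11 was as shallow, but its Actb share (8.23%) and its median correlation (0.354) lay within the range of the deep cells. Rn45s, the 45S precursor of ribosomal RNA, was at 50794 CPM in cell 11 and 15101 CPM in cell 16, with a median of 996 CPM over all 20 cells.

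Cells 11 and 12 had a Spearman correlation of 0.788, whereas the next highest of the 190 pairs of cells was 0.505 and the median pair was 0.354. Of the 954 genes at 100 CPM or more in cell 12, cell 11 had a read of 99.9%, and each of the other cells thinned to the same 69181 reads had a read of 54.3% to 80.8% of them. Cell 11 had reads of 2012 genes, more than the 1984 of the richest and the 1571 of the median other cell at that depth. The libraries are not copies of each other. Csf1r had 65 reads in cell 11 and 71 in cell 12 although cell 12 was the deeper library, Mrc1 had 65 reads in cell 11 and 1 in cell 12, and Rn45s had 3514 reads in cell 11 and 427 in cell 12. Both cells came from column 5 of the plate, in neighbouring rows. What the 2 libraries share was not tested, and the values that cells 11 and 16 bear on are given without them below where they were computed.

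**Figure D1:**
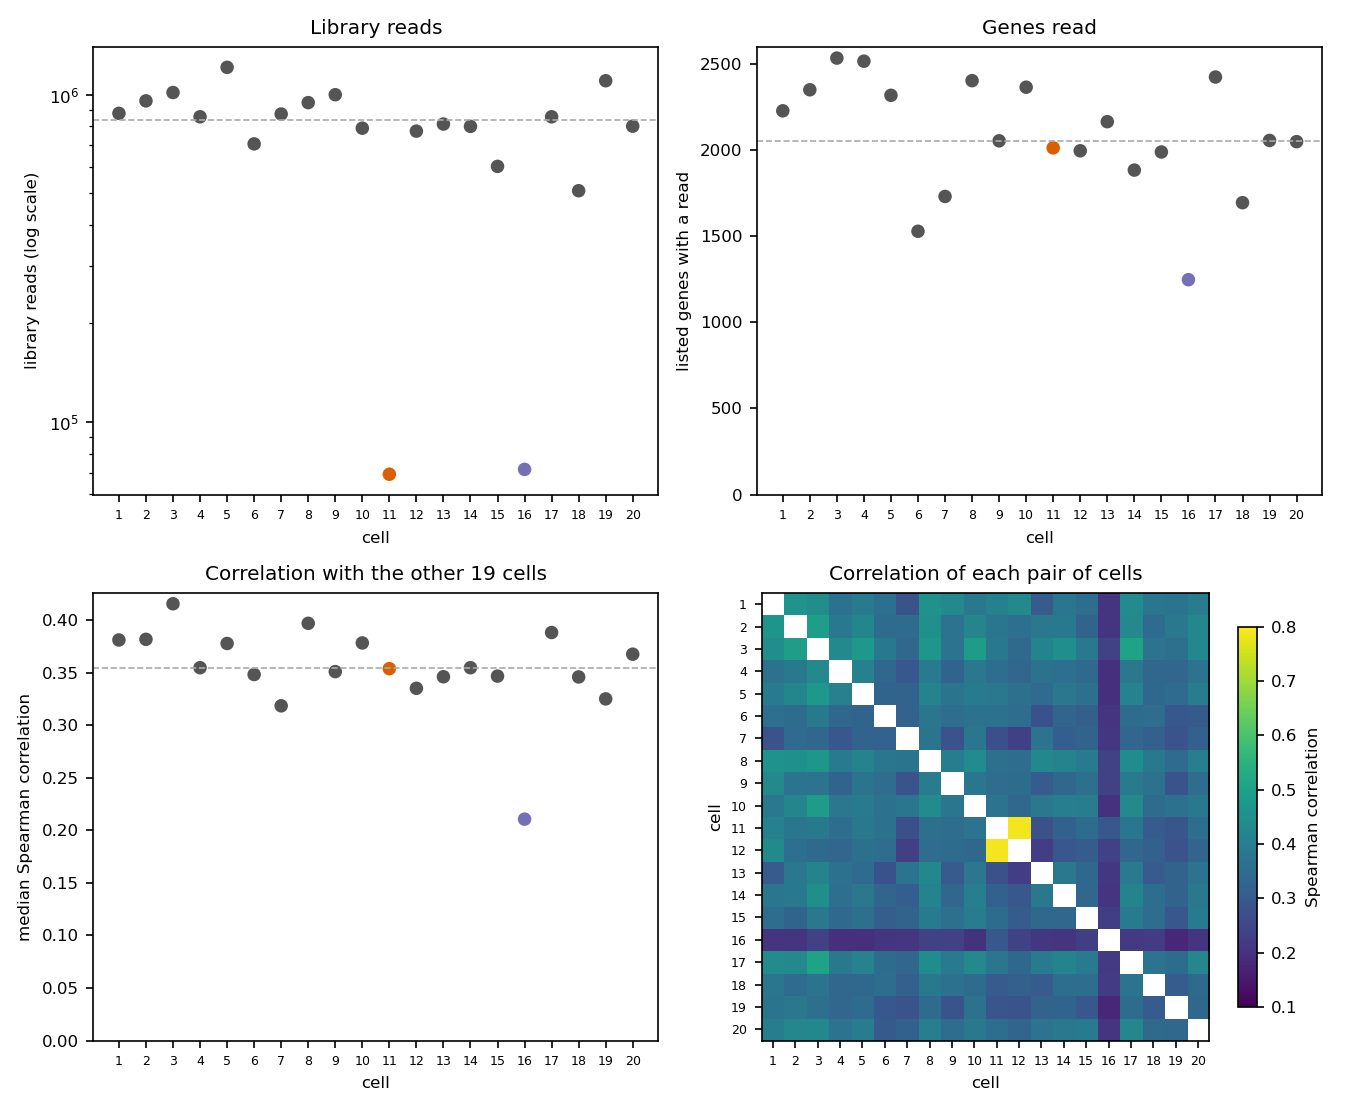
Library reads (log axis), listed genes with a read, and median Spearman correlation with the other 19 cells, for each of the 20 cells, with the median over cells as a dashed line, and the Spearman correlation of each of the 190 pairs of cells as a colour. Cell 11 (orange) and cell 16 (purple) have the lowest library reads, cell 16 has the lowest correlations (median 0.211), and cells 11 and 12 form the brightest pair (0.788).

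Most transcripts varied far more between cells than the counting of reads would give. Over the 2204 genes that 10 or more of the cells had reads of, called evaluated genes below, the median CV was 1.46 and the range 0.326 to 4.38, while the median CV expected from counting error alone was 0.123. A CV of 1.5 or more was found for 47.5% of the evaluated genes (1047) and a CV under 0.5 for 1.36% (30). The CV was lower where the pooled level was higher, with a median of 1.73 between 20 and 100 CPM, 1.38 between 100 and 500 CPM, 0.878 for the 245 genes between 500 and 2000 CPM and 0.716 for the 40 genes above 2000 CPM. Without the shallow cells 11 and 16, the number of genes with a CV under 0.5 was 56 in place of 30.

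**Figure D2:**
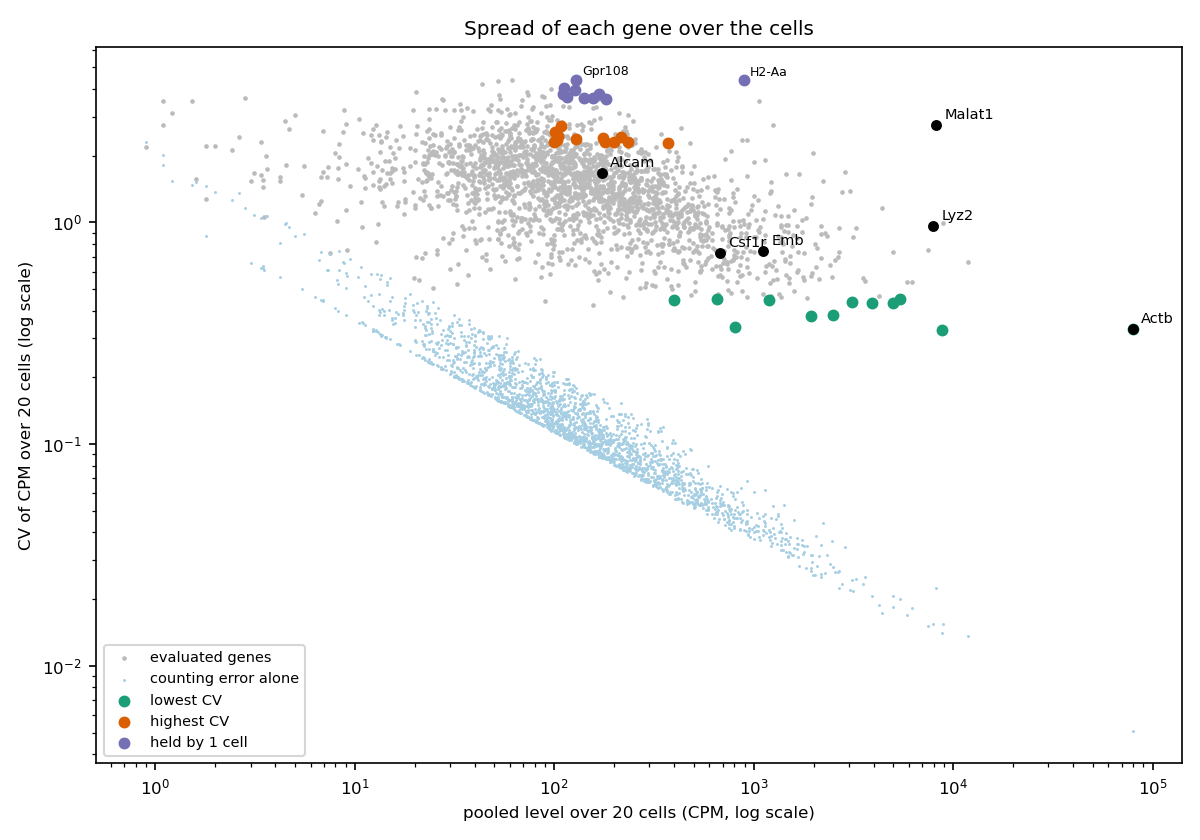
CV of CPM over the 20 cells against the pooled level, both on log axes, for the evaluated genes (grey) and for counting error alone (blue), with the 12 genes of lowest CV (green), the 12 of highest CV in which no cell holds 50% (orange), the 10 with the largest single-cell share (purple) and 6 genes named in the text (black). The grey cloud lies above the blue one at nearly every level, Actb sits at a CV of 0.330 and H2-Aa at 4.37.

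The 12 most constant transcripts included Actr2, Actb, Myh9, Cfl1 and Tmsb4x, genes of actin filaments and their motor or binding proteins. Of the 27 evaluated genes of the actin list, 7 had a CV under 0.5, beside 1.36% of all evaluated genes. The CV was lower at higher pooled levels, and neither this list nor the lists below were compared with genes of a like level. Actr2, a subunit of the Arp2/3 complex that branches actin filaments, had the lowest CV, 0.326, with a median of 8561 CPM. Outside cell 16, where it was at 168 CPM, it lay between 5247 CPM in cell 11 and 12262 CPM in cell 10. Actb had a CV of 0.330, with a median of 76781 CPM and a range of 52120 to 129275 CPM over the 19 cells other than cell 16, which was at 8452 CPM. Myh9, the heavy chain of non-muscle myosin, had a CV of 0.336, and the actin-severing protein gene Cfl1 and the actin-binding Tmsb4x both had 0.452. Cell 16 was the lowest cell for all 12.

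Further constant genes were Ywhae (CV 0.377), a 14-3-3 adaptor protein, Ftl1 (0.433), the light chain of the iron store ferritin, Cd53 (0.436), a tetraspanin of leukocytes, Rps14 (0.448), a ribosomal protein, and Fcer1g (0.449), the signalling chain of Fc receptors. Fcer1g was at 14.0 CPM in cell 16, 708 CPM in cell 11 and between 642 and 2572 CPM in the 18 deep cells, and its CV without the 2 shallow cells together was 0.363. Without those cells, Actr2 had a CV of 0.203 and Actb 0.258.

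At the other end stood 12 genes with CVs between 2.28 and 2.73 that no single cell dominated. Igf1, the insulin-like growth factor that macrophages release in repair, is an example. It was at 2708 CPM in cell 3 and 1811 CPM in cell 4, at 644 CPM in cell 5 and 613 CPM in cell 13, at 252 CPM in cell 15, and under 100 CPM in the other 15 cells, of which 12 were under 10 CPM. Kdm2a, a histone demethylase, had the highest CV of these (2.73), with 929 CPM in cell 9, 734 CPM in the next cell and a median of 11.3 CPM. The others were Ankfy1 (CV 2.56), N4bp2l2 (2.46), the adiponectin receptor gene Adipor1 (2.43), Wdr43 (2.39), the centrosomal protein gene Nin (2.37), Farsb (2.35), a tRNA synthetase subunit, the autophagy gene Atg3 (2.31), the splicing factor gene Rbm5 (2.31), Pus1 (2.31), which makes pseudouridine, and Pdcd6ip (2.31), of the ESCRT pathway. Each was high in few cells, and these 12 genes had their highest levels in 9 different cells. Nin was highest in cells 12 (1694 CPM) and 11 (1171 CPM), the libraries that share much of their profile.

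On-off transcripts, with no read in at least 5 cells and at least 100 CPM in at least 5 others, were 14.1% of the genes with a read (497 of 3528). The 12 with the widest spread included 2 chemokines, Ccl7 and Cxcl3. Ccl7, a chemokine that attracts monocytes, was at 12908 CPM in cell 17, 10079 CPM in cell 14 and 9022 CPM in cell 13, between 629 and 1928 CPM in cells 4, 5, 7, 18 and 20, and under 100 CPM in the other 12, of which 5 had no read. No cell lay between 72.9 and 629 CPM. Cxcl3, a neutrophil-attracting chemokine, was at 2023 CPM in cell 14, 852 CPM in cell 16, 780 CPM in cell 7, 623 CPM in cell 18, 362 CPM in cell 8 and 250 CPM in cell 15, and had no read in 11 cells. Lpl, lipoprotein lipase, was at 100 CPM or more in 9 cells, up to 2918 CPM in cell 17, and had no read in 6. Fcrls, an Fc receptor-like gene, was at 100 CPM or more in 9 cells and had no read in 9. Tnfrsf26, a member of the TNF receptor family, was at 100 CPM or more in 9 cells, up to 5487 CPM in cell 3, and had no read in 7.

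Further on-off genes were Mier1, Rdh13, Phip, Tbck, Cbx5 and Uvssa, each at 100 CPM or more in 6 to 10 cells and with no read in 7 to 9. Cbx5 encodes the heterochromatin protein HP1 alpha and Uvssa a protein of transcription-coupled repair. In the plot of values by cell, these genes had cells at high levels and cells at or near 0. The rule that chose them requires both, and some cells lay between. The constant genes, chosen by their low CV, filled 1 narrow band with cell 16 below it.

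**Figure D3:**
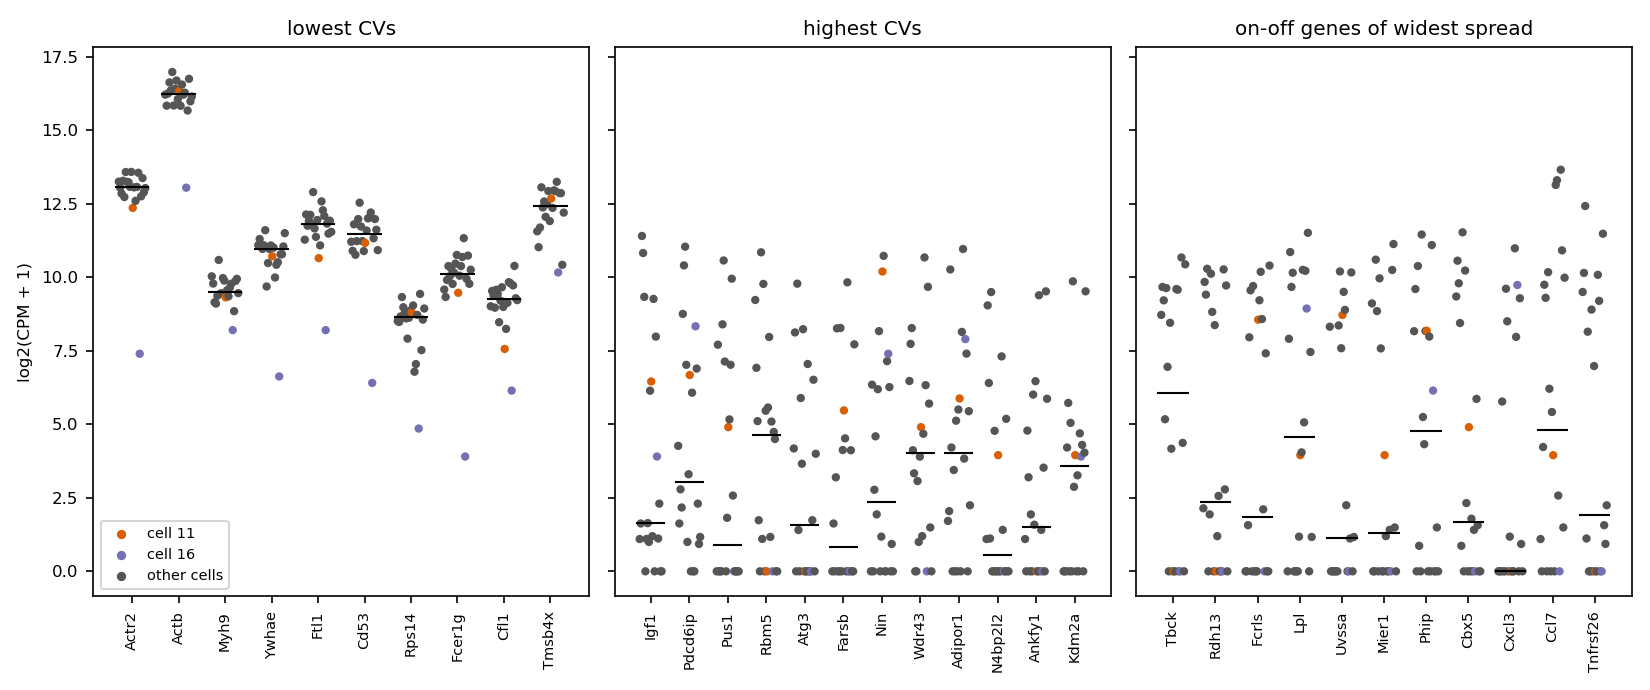
Level in each of the 20 cells, as log2(CPM + 1), of 10 of the 12 genes of lowest CV, the 12 of highest CV and 11 of the 12 on-off genes of widest spread, with the median over cells as a black line. Cell 16 (purple) lies below the other cells for the constant genes, and the on-off genes have cells at 0 and cells above 100 CPM, as the rule that chose them requires.

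Some transcripts were held by 1 cell. Of the 1326 genes with a pooled level of at least 100 CPM and a read in at least 5 cells, 6.18% (82) had at least 50% of their summed CPM in 1 cell. They were spread unevenly, with 19 in cell 16, 14 in cell 7, 10 in cell 6, 7 in cell 18, 6 each in cells 14 and 15 and 4 in cell 19, and none in cells 1, 3, 8, 10 and 12. The clearest was the MHC class II gene H2-Aa (chr17:34282744-34287823, mm10), which encodes a chain of the molecule that presents antigen to CD4 T cells. Cell 6 was at 19638 CPM, or 13896 reads, cell 16 was at 433 CPM, or 31 reads, 6 cells had 1 or 2 reads, and 12 had none. H2-Ab1, the partner chain, followed the same cells, with 8530 CPM in cell 6, 5350 CPM in cell 16 and at most 1 read elsewhere. Cd74, the invariant chain that escorts class II molecules, was at 20287 CPM in cell 6, 2473 CPM in cell 16 and between 0.906 and 411 CPM in the other 18 cells. Cell 6 also held 80.0% of the summed CPM of Cxcl16, a membrane-bound chemokine. B2m, the light chain of class I molecules, was read in every cell, from 319 CPM to 7572 CPM, with a median of 1258 CPM. It was highest in cell 7, cell 6 was next at 4798 CPM, and cell 16 was at 1271 CPM.

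Gpr108 had the largest single-cell share, 98.6%, with 3274 CPM in cell 15 and at most 22.8 CPM elsewhere. Cell 6 held 85.3% of the summed CPM of Trim30d, 81.7% of that of the autophagy gene Uvrag and 81.6% of that of the transcription factor gene Rreb1, and cell 17 held 85.4% of that of Rlim, an X-linked ubiquitin ligase gene. Cell 16 held 90.7% of that of the Golgi protein gene Golgb1, 89.2% of that of the myosin gene Myo1c, 82.2% of that of Ubr4 and 81.4% of that of the cytokine receptor gene Csf2rb2. In this shallow library the 12405 CPM of Golgb1 still made a level far above the 313 CPM of the next cell. Without cells 11 and 16, transcripts held by 1 cell were 5.96% of the genes that then passed the filters, in place of 6.18%.

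The series title names embigin and CD166, and their genes differed in how many cells had them. Emb (chr13:117220573-117274415), embigin, a membrane glycoprotein of the immunoglobulin superfamily, was read in all 20 cells, at 1110 ± 827 CPM (mean ± SD, n = 20 cells) and a CV of 0.745. Cell 12 was highest at 3200 CPM, followed by cell 11 at 2082 CPM, and the lowest were cell 16 at 41.9 CPM, cell 19 at 109 CPM and cell 14 at 179 CPM. Alcam (chr16:52248996-52453081), the adhesion molecule CD166, was read in 13 cells, at 169 ± 283 CPM and a CV of 1.67. It was at 1205 CPM in cell 13, 530 CPM in cell 6, 321 CPM in cell 7 and 320 CPM in cell 15, between 100 and 250 CPM in cells 2, 3, 8, 10 and 17, and had no read in cells 1, 5, 9, 11, 12, 14 and 20. Because Emb was read in all 20 cells, the 7 cells with no Alcam read all had Emb. Among them cell 11 was shallow, and its 0 reads allow up to 43.4 CPM of Alcam. The Spearman correlation of the 2 genes over the 20 cells was -0.38.

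By Spearman correlation over the 20 cells, among the 1353 genes detected in 15 or more of them, the genes nearest to Emb included Prdx5 (Spearman correlation 0.74), which encodes an antioxidant enzyme, and Rps27a (0.72), which encodes a ribosomal protein and was at most at 47.8 CPM. The most opposed gene was Malat1 (-0.64, or -0.80 without the shallow cells). Alcam itself was read in fewer than 15 cells, and its cells with no read tie in rank. The genes nearest to Alcam were Jak1 (0.70), a cytokine receptor kinase, Lgmn (0.69), a lysosomal protease, and Atp2b1 (0.69), a calcium pump. The most opposed was Hspa8 (-0.80), the constitutive heat shock protein 70. Hspa8 was at 354 to 647 CPM in cells 1, 5, 9, 11, 12, 14 and 20, which had no Alcam read, at 8.02 to 277 CPM in the 9 cells at 100 CPM or more of Alcam, and highest in cell 16, at 2500 CPM, where Alcam had 1 read. These correlations describe 20 cells of 1 culture label that share a plate and a sequencing run, and no p-value was made from them.

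Pairs of genes moved together in a small part of all pairs. Over those 1353 genes, the median Spearman correlation of the 914628 pairs was 0.06, 0.891% of pairs were at 0.6 or above and 0.242% were at -0.6 or below. The highest pair was Ccl3 and Cd14, at 0.90. Ccl3 encodes the chemokine MIP-1 alpha, and Cd14 the co-receptor for bacterial lipopolysaccharide. Cells 9, 11, 12, 13, 14 and 17 had 1214 to 2743 CPM of Ccl3 and 477 to 1816 CPM of Cd14, and cells 15, 16, 18 and 19 had at most 36.4 CPM of Ccl3 and at most 1.97 CPM of Cd14. The correlation was 0.89 without the shallow cells and 0.87 without the 2 cells farthest from the median of Ccl3. Cells 4, 5 and 7 had 159 to 370 CPM of Ccl3 and at most 2.29 CPM of Cd14. By rank, cell 5 departed most from the correlation, with 370 CPM of Ccl3 and no read of Cd14.

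The next pairs were Golt1b and Mapk1ip1l (0.90), Chmp2a and Rps15 (0.89), Dab2 and Prdx1 (0.89), Plek and Wdr43 (0.88), Arhgdib and Cacybp (0.88), Psma2 and Sod2 (0.87) and BC005537 and Twf1 (0.87). Golt1b and Mapk1ip1l both followed library reads (0.55 and 0.62), and the other pairs were between -0.37 and 0.46 with them. Dab2, an endocytic adaptor, was under 100 CPM in cells 1, 11, 12 and 16, which had 95.7, 43.4, 2.58 and 0 CPM, and above 460 CPM in the other 16 cells, up to 5685 CPM in cell 17. Prdx1, a peroxide-removing enzyme, was between 27.9 and 612 CPM in the same 4 cells, and in the other 16 only cell 18, at 588 CPM, was under 612 CPM. The correlation of Dab2 and Prdx1 was 0.86 without the shallow cells.

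The chemokine list held 11 listed genes of 24, of which 8 were evaluated and 4 had a CV of 1.5 or more, a share near the 47.5% of all evaluated genes. Their summed level ranged from 573 CPM in cell 19 to 38345 CPM in cell 14, with a median of 6457 CPM. Ccl2, the main monocyte attractant, was at 15052 CPM in cell 17, 14994 CPM in cell 13 and between 8554 and 9346 CPM in cells 3, 10, 14 and 15, and under 60 CPM in cells 1, 9, 11, 12, 16 and 19. The median correlation of its 15 pairs of members in the correlation set was 0.35 beside 0.06 for all pairs, or 0.40 without the shallow cells, and 2 of the 15 were at 0.6 or above, Ccl2 with Ccl4 (0.66) and Ccl2 with Ccl7 (0.62). Ccl3 and Ccl4, which encode MIP-1 alpha and MIP-1 beta and lie near each other in the genome, had a correlation of 0.00. Ccl4 had no read in cells 1, 9 and 11 and 3.88 CPM in cell 12, where Ccl3 was at 807 to 2200 CPM, and cell 18 had 2728 CPM of Ccl4 with 1.97 CPM of Ccl3. Cxcl2, which attracts neutrophils, was highest in the shallow cell 16 (5937 CPM) and had a correlation of -0.02 with Ccl2, or 0.07 without the shallow cells.

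Ribosomal protein genes had the lowest median CV of the lists with at least 4 evaluated members, with and without the shallow cells. Of 22 listed genes, 21 were evaluated, with a median CV of 0.618 beside 1.46 for all evaluated genes, and only Rps6 had a CV of 1.5 or more. The median correlation of the 190 pairs was 0.36, close to that of the chemokine list, and 0.35 without the shallow cells, where the chemokine list was at 0.40. Over all 20 cells, 13.7% of the ribosomal pairs (26) were at 0.6 or above. The highest was Rps3 with Rpl7, at 0.81, or 0.76 without the shallow cells. Rps3 was at 27.9 CPM in cell 16, 291 CPM or more in every other cell and 2283 CPM in cell 20, and Rpl7 had no read in cell 16 and reached 518 CPM in cell 10. The summed level of the list was lowest in cell 16 (1844 CPM) and cell 13 (2178 CPM), with a median of 6321 CPM and a highest level of 8281 CPM in cell 5. Scaling by median-ratio size factors, which are built from genes read in every cell, put the median correlation of the list at 0.16.

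**Figure D4:**
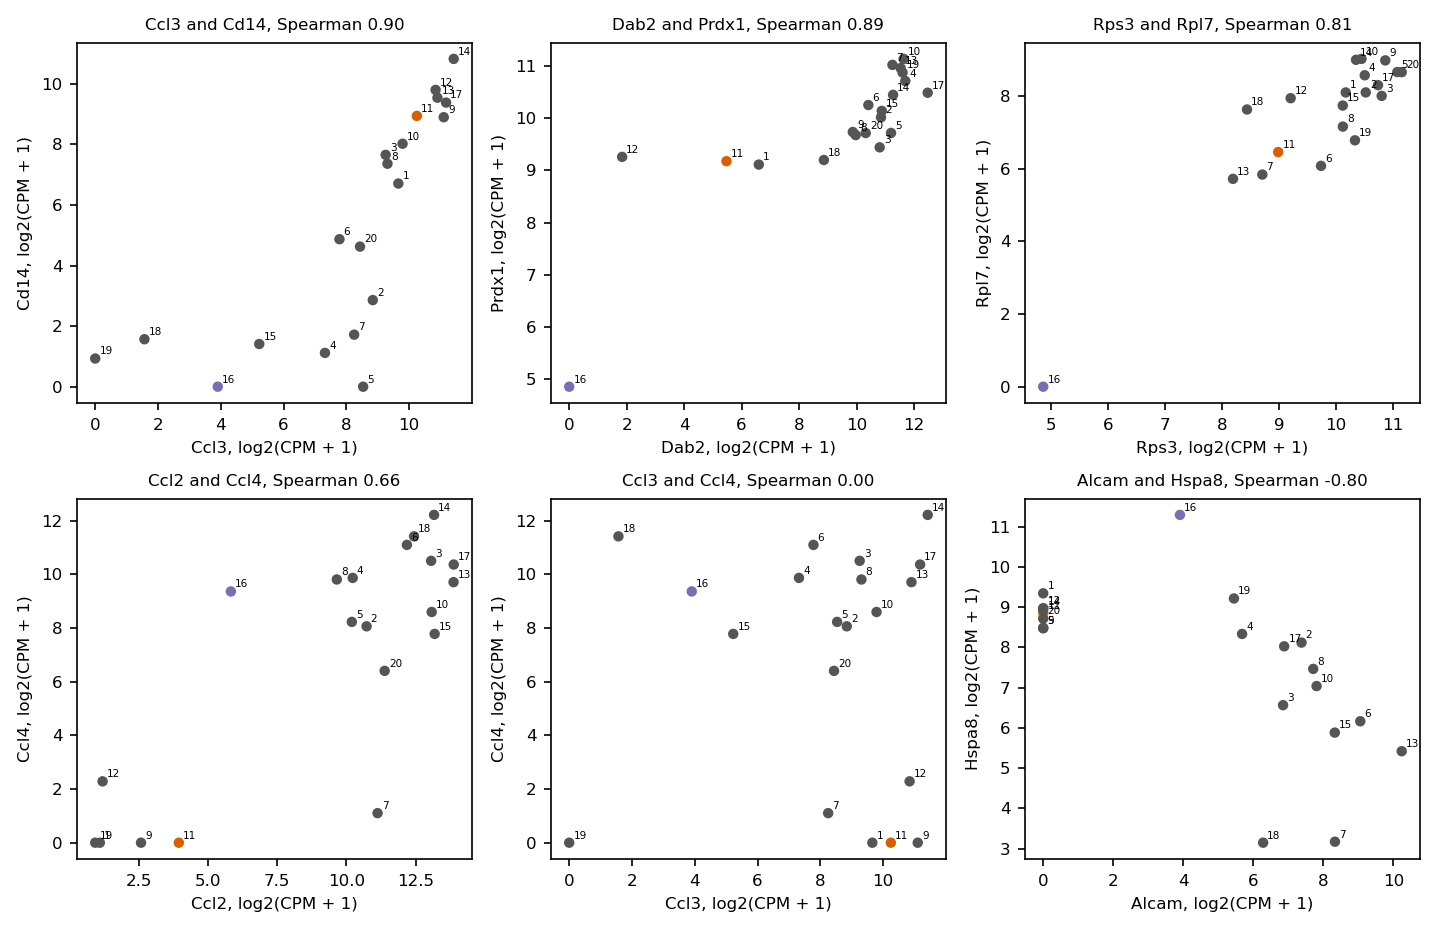
Levels of 6 pairs of genes in the 20 cells, each as log2(CPM + 1), with each point labelled by its cell. Ccl3 and Cd14, Dab2 and Prdx1, Rps3 and Rpl7 and Ccl2 and Ccl4 have positive correlations (0.90, 0.89, 0.81 and 0.66), Ccl3 and Ccl4 have 0.00, and Alcam and Hspa8 have -0.80.

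Promoter sequences are shown for the ribosomal list, which had the highest median correlation over all 20 cells, and for Ccl3 of the highest gene pair. They are RefSeq sequences of GRCm38.p6, from 80 bases before to 20 bases after the start of the gene, 5′ to 3′ on the strand of the gene. Capitals mark matches, on either strand, to GGAAGT, a core of ETS family sites. The other motifs searched on both strands were the NF-kappaB decamer, GGGA and TTCC with any 2 bases between, and TGANTCA, the AP-1 site. The 4 ribosomal protein genes are those with the highest mean correlation within their list that matched a single promoter entry, on chr17:33955646-33955745, chr11:97782420-97782519, chr7:3703961-3704060 and chr7:141447571-141447670 in the order shown, followed by Ccl3 (chr11:83649359-83649458). Rps18, Rpl23 and Ccl3 lie on the minus strand and the others on the plus strand.
Rps18: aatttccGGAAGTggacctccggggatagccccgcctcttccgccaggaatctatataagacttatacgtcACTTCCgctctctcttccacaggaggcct
Rpl23: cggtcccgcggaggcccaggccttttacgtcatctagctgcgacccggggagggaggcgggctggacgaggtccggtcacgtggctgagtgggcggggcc
Rps9: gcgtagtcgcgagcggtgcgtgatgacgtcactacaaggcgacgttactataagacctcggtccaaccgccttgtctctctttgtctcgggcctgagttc
Rplp2: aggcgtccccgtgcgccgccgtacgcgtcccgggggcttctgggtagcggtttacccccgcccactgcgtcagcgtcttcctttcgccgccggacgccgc
Ccl3: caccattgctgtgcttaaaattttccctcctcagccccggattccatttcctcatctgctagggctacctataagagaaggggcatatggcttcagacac

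Of the windows shown, Rps18 held GGAAGT on both strands, and Rpl23, Rps9, Rplp2 and Ccl3 held none of the 3 motifs. Of all 32544 promoter windows of this length, 10.9% held GGAAGT, 0.473% held the NF-kappaB decamer and 2.63% held TGANTCA. Of the 14 windows matched to ribosomal protein genes of the correlation set, 3 held GGAAGT and none held either of the others. The 19 windows matched to the chemokine and cytokine list include genes that are not listed here, unlike the ribosomal set, and 3 held each motif. Among the genes with a match, only Cxcl3 (NF-kappaB decamer) and Ccl9 (GGAAGT and TGANTCA) are among the 11 listed genes. A match describes letters and says nothing of binding in these cells.

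Among the other lists, the actin cytoskeleton genes had a low median CV (0.682, 27 evaluated genes) and a median pairwise correlation of 0.04, or -0.003 without the shallow cells. Their summed level was highest in cell 6 (160681 CPM) and 82119 CPM or more in every cell but cell 16 (20912 CPM). The 26 lysosomal genes had a median CV of 1.00. Ctsb, cathepsin B, was at 37340 CPM in cell 13, 446 CPM in cell 12 and 461 CPM in cell 16, and Ctsl, cathepsin L, was at 17160 CPM in cell 13 and 1 read (1.41 CPM) in cell 6. The correlation of Ctsb and Ctsl was 0.68. C1qb and C1qc, chains of the first complement component, had a correlation of 0.79. Cell 18 was highest for both, at 2688 and 1008 CPM, and cells 8, 12 and 19 had at most 1.29 CPM of either.

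The respiratory chain list had a median CV of 0.913 over 31 evaluated genes, of which 4 had a CV of 1.5 or more beside 47.5% of all evaluated genes, and a median pairwise correlation of 0.20. Interferon-stimulated genes had a CV of 1.5 or more in 9 of 13 evaluated genes and a median of 1.73, beside 47.5% and 1.46 for all evaluated genes, while Ifitm3, which blocks virus entry, was read in 19 cells with a CV of 0.635. A further 12 listed genes of that list were read in fewer than 10 cells. Among these, cell 17 held 90.7% of the summed CPM of Ifit1 (303 CPM) and 89.7% of that of Ifit3 (165 CPM), and cell 12 had the highest Isg15 (346 CPM), with 188 CPM in cell 11 and no read in 16 cells. The 4 osteoclast genes evaluated, of 15 in the list, all had a CV of 1.5 or more, beside 47.5% of all evaluated genes. Tnfrsf11a, which encodes the receptor RANK for the osteoclast-forming cytokine, was at 1013 CPM in cell 19, 1004 CPM in cell 18, 693 CPM in cell 13, 672 CPM in cell 10, 414 CPM in cell 3, 203 CPM in cell 8 and 111 CPM in cell 17, and under 25 CPM in the other 13 cells.

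Of the resident macrophage genes, 3 of 7 evaluated had a CV of 1.5 or more and the median was 1.45, near the 47.5% and 1.46 of all evaluated genes, and the 4 evaluated genes of the blood stem cell niche list were all at 1.5 or more. Mrc1, the mannose receptor CD206, was at 4666 CPM in cell 13, 2607 CPM in cell 20 and 2522 CPM in cell 4, and under 15 CPM in cells 1, 2, 6, 9, 12, 14, 16 and 19. Its nearest genes were Nisch (0.74), Ccl7 (0.73) and Myo5a (0.73). Maf, a transcription factor of resident macrophages, had a median of 2085 CPM and a highest level of 8492 CPM in cell 7, with no read in cell 12 and 3.62 CPM in cell 19. Spp1, osteopontin, a secreted phosphoprotein of bone and of activated macrophages, was at 9304 CPM in cell 2, 2688 CPM in cell 1 and 2437 CPM in cell 14, with no read in cells 6, 8 and 20.

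**Figure D5:**
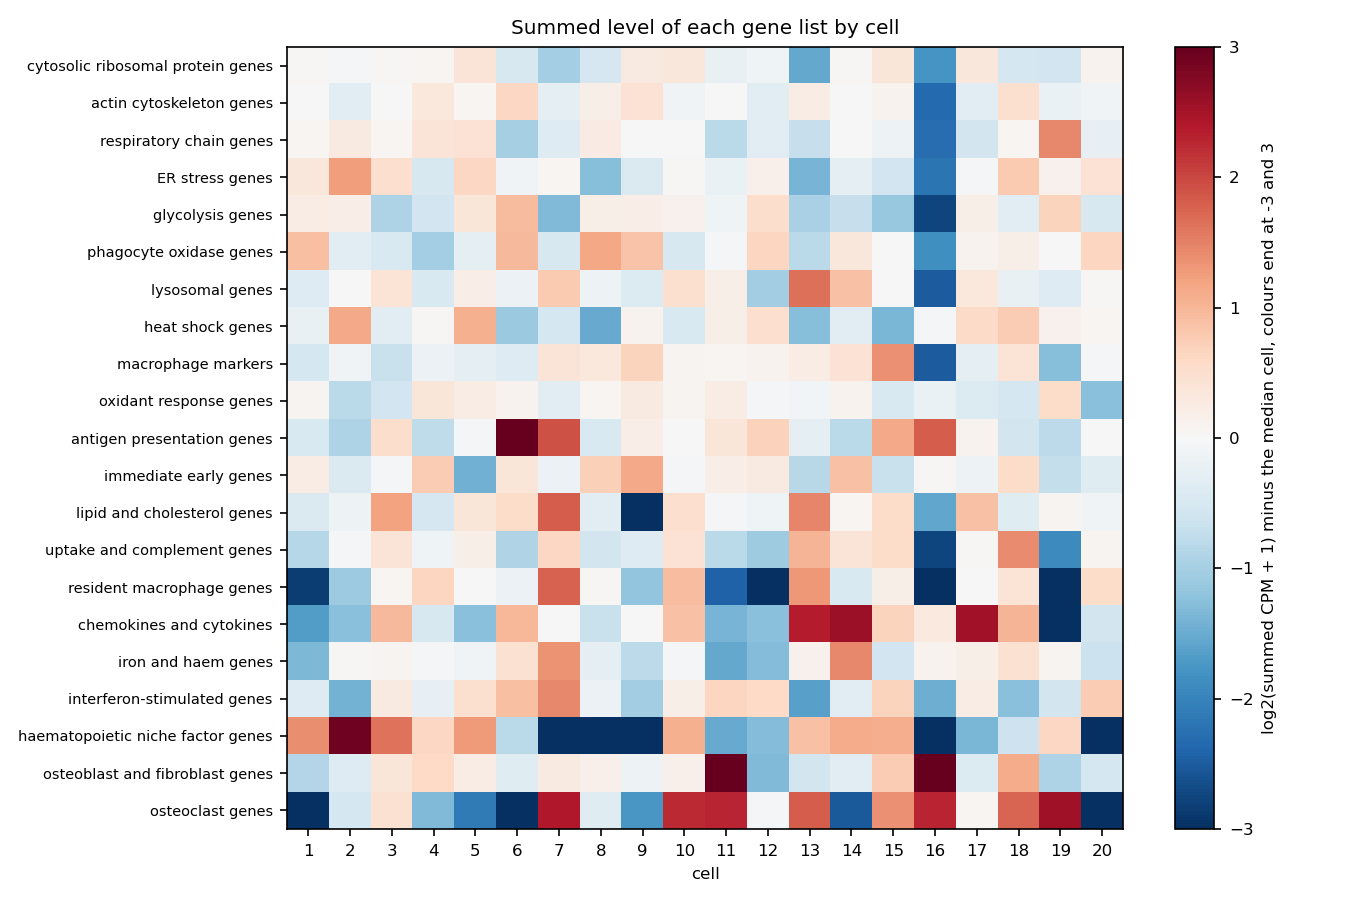
Summed level of each gene list with at least 4 evaluated members in each of the 20 cells, as the difference of log2(summed CPM + 1) from the median cell, lists in order of their median CV from lowest (top) to highest. Cell 16 is low in most lists, cell 6 is high in antigen presentation genes, and cell 14 is high in chemokines, with 38345 CPM.

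Several deep cells differed from the others in named sets of genes, and they are described here by those genes. Cell 12 had the highest Emb and Ptprc and the lowest Csf1r, no read of Maf and Ms4a7, and 1.29 CPM of C1qb and Mrc1. Together with cell 11 it lay at the low end of the second principal component, which held 9.27% of the variance of log2(CPM + 1) over 2089 genes. Ccl2, Ccl7, Maf and Dab2 were among the genes with the largest positive loadings on it. Cell 11 resembled cell 12 in Maf (72.3 CPM), Ccl2 (14.5 CPM) and Alcam (0), but had 940 CPM of Mrc1 and 940 CPM of Csf1r. The first component held 12.7% of the variance and had a Spearman correlation of 0.88 with the number of genes read, with cells 16 and 6 at its low end. Without the shallow cells, the first component held 11.5% of the variance, with cells 6 and 7 at its low end and a correlation of 0.89 with genes read, and the second held 8.76%, with cells 12 and 6 at its low end and cells 7 and 13 at its high end.

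Cell 19 was a deep library (1103554 reads, 2055 genes) that lacked several genes which nearly all other cells had. Among 171 genes at 100 CPM or more in all but at most 1 of the other cells of over 100000 reads, 12 were under 10 CPM in it, whereas the median deep cell had 2 such genes. Those 12 included Lyz2, the scavenger receptor gene Msr1 (1 read, against a median of 2343 CPM in the other deep cells), the Fc receptor gene Fcgr3 (0 reads, against 1130 CPM), the oxidase subunit gene Cyba (1 read, against 1163 CPM), the complement receptor gene C5ar1 (0 reads, against 1178 CPM), Marcks, Ctsc and Ly6e. It had no read of Ccl3, Ccl4, Ccl9, Adgre1 and C1qb. Yet Csf1r was at 1530 CPM and Tyrobp at 1898 CPM, both above their medians. Its summed respiratory chain genes were the highest of the 20, at 22237 CPM beside a median of 8220 CPM, and so were Tnfrsf11a and the catalase gene Cat (985 CPM).

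Cell 6 had reads of 1528 genes, the fewest of the 18 deep cells, and was the class II cell described above. It lacked 11 of 177 such widely read genes, including Ctsl, the actin-bundling protein gene Lcp1, Golt1b and the ATP synthase gene Atp5b. Cell 7 had the highest Pf4, Maf, Csf1r, B2m and Apoe, the apolipoprotein of macrophages (7784 CPM, against 1976 CPM in the next cell), held 55.5% of the summed CPM of the scavenger receptor gene Stab1, and lacked 9 of 175 such genes. Cell 13 had the highest lysosomal sum (89233 CPM) and the highest Mrc1, Ccl9 and Alcam. Cell 14 had the highest Ccl3, Ccl4, Cxcl3, Cd14 and Fth1, the ferritin heavy chain gene (36122 CPM, with a median of 10161 CPM), and the highest Tnfaip3, an inhibitor of NF-kappaB signalling (2545 CPM). Cell 2 had the highest sums for the ER stress and heat shock lists together with the highest Spp1. These lists share Hspa5 and Hsp90b1, and cell 2 was the highest cell for Hsp90b1 (3763 CPM). Its heat shock sum was 10428 CPM, beside 10060 CPM in cell 5. Cell 15 had the highest Lyz2, Itgam, an integrin chain of myeloid cells (4132 CPM), and S100a8. These descriptions rest on 1 cell each, and how far such a cell would recur in another culture was not measured.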

How the data were processed

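Single-cell RNA-seq of 20 cells (plate 7) of a table of 44 cells was used. The deposited values are a signal of RPKM form, made by the authors from reads. Seurat and the mm10 build are named per the submitters' processing notes, and an aligner, a counter and gene models were not given in the sources used here. The divisor of a gene had a Spearman correlation of -0.02 with annotated length over 3433 genes. All 41527 values above 0 of the 20 cells became whole reads (tolerance 0.0001) after division by the value of 1 read, and these were scaled to library reads as CPM. Library reads were 69181 to 1212604 per cell, without molecular identifiers. Evaluated genes had reads in 10 or more cells, and correlations are Spearman's over genes with reads in 15 or more. Alcam, with reads in fewer cells, was still correlated as a named gene. The labels name no culture or animal, so cells are no replicates of the condition and no test was made.

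Genes named are the 12 lowest and 12 highest CVs, the 10 largest single-cell shares, the 12 on-off genes of widest spread on log2(CPM + 1), the 8 highest pairs (pooled level of at least 100 CPM), the nearest genes of Emb, Alcam and Mrc1, and the extremes of the fixed lists. Some genes that this rule picks are not reported here. The members and lists were chosen with earlier results of these data known. The single cells and further genes described by name were chosen after their values were seen. Under alternatives, a count or CV counts as changed beyond 1.5 times and a correlation beyond 0.2. The procedure was tested on simulated data. Python 3.11.15, numpy 2.4.6, pandas 2.3.3, scipy 1.17.1 and matplotlib 3.10.9 were used.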

Additional observations from a re-analysis of the deposited data

How the results depend on the processing

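No paired analysis was possible because the results come from no test and describe cells of 1 condition. The median CV of 1.46 lay between 1.17 (a read in 15 or more cells) and 1.92 (no filter). The 497 on-off transcripts were 775 with 50 CPM as the level for on and 865 with off set at under 10 CPM, an alternative chosen after seeing the data, and 335 without cells 11 and 16. The transcripts held by 1 cell, 6.18% of the eligible genes, were 8.29% with listed reads as the total and 9.88% with median-ratio size factors, with counts over 1.5 times the 82 found otherwise, and 1.13% where 1 cell had to hold 75%. Of the co-varying genes, pairs at 0.6 or above were 0.891% by Spearman and 2.28% by Pearson correlation of log2(CPM + 1), and between 0.639% and 0.939% under the other alternatives. For the genes with CV of 1.5 or more, 1047 became 618 after thinning to 300000 reads, 327 with a read in 15 or more cells and 2368 with no filter. The genes with CV under 0.5 were 30, 54 after thinning and 56 without cells 11 and 16. Thinning also left out cells 11 and 16, which had fewer than 300000 reads, so the thinned values come from the other 18 cells. Of the CVs of named genes under the alternatives, 63 moved and 1062 did not, and of the correlations of named pairs 6 moved and 176 did not. No correlation of a named pair at 0.6 or beyond changed sign, while near 0 that of Ccl2 and Cxcl2 and the median of the actin list did so without cells 11 and 16. The cause of these changes was not tested. Depth limits cells 11 and 16, where 3 reads are 43.4 and 41.9 CPM, and 18.5% of all values above 0 were of 1 to 3 reads.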

Other observations

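Low reads of the class II genes were unevenly placed on the plate, a pattern noticed after the data were seen. Cell 6 had 13896 reads of H2-Aa and 6036 of H2-Ab1. H2-Aa had 1 or 2 reads in cells 1, 2, 3, 4, 5 and 18, which with cell 6 are all the cells of plate columns 1 and 2, and no read in the other cells except cell 16, which had 31. H2-Ab1 had 1 read in cells 1, 3, 4, 5 and 18 and 383 in cell 16. Over 100 genes of which 1 deep cell held at least 50% and reached 1000 CPM, values of 1 to 3 reads made up 19.9% of the values (42 of 211) in cells of the same plate column and 13.0% (193 of 1489) in cells of other columns. By blocks of 8 neighbouring sample numbers, the share was 17.6% within the block of the holding cell and 12.2% outside it. For genes held by cells of numbers 25 to 32 it was 21.8% within and 11.5% outside, for 33 to 40 it was 17.8% within and 12.7% outside, and for 41 to 48 it was 8.87% within and 12.7% outside. The source of these reads was not tested.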
